A study of Saccharomyces cerevisiae with 8 samples.

Results

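Hexose transporter genes encode the membrane proteins through which budding yeast (Saccharomyces cerevisiae) takes up glucose and other hexoses. The 10 genes described here, HXT1 to HXT10, were taken as a list from 6002 nuclear protein-coding genes. For each, every nucleosome call from 1200 bp upstream of the coding sequence to its end was read in all 8 libraries. Nucleosomes were mapped by MNase-seq, in which micrococcal nuclease cuts the linker DNA and the fragments that nucleosomes protect are read out by sequencing.

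Cells received 1,10-phenanthroline, which binds metal ions and is used to stop yeast transcription. The dose was 100 µg/ml, given for 30 min at 30 °C (4 libraries), and the other cells were left untreated (4 libraries). Both groups came from the same 4 strains of the line PPY1, grown in YPD rich medium and synchronised in G1. All carry the genotype MATa his3Δ0 leu2Δ0 met15Δ0 ura3Δ0 bar1::leu2 and an insert of 81 bp in a pair of genes. By label, strain 1 holds it in CKB2 and DGK1, strain 2 in PPT1 and SLM3, strain 3 in TRP4 and PAN5, and strain 4 in UBX5 and BSP1. The agent acts on the whole cell and not on a chosen gene, and each strain gave 1 library a treatment. The strain label is the replicate number, and nothing in the labels says whether the libraries of 1 group came from separate experiments beyond the strains themselves. The p-values therefore measure the spread between these libraries.

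A step of about the insert length, between 77.5 and 84.0 bp, was found in the call coordinates at 16 of 64 pairs of a library and an insertion site. None of the 16 lay in the strain that the label names for that site. The steps of CKB2 and DGK1 were in the libraries labelled strain 2, those of PPT1 and SLM3 in strain 3, those of TRP4 and PAN5 in strain 4, and those of UBX5 and BSP1 in strain 1. The treated and the untreated library of a label held the same steps. Strain numbers below are those of the labels. HXT3, HXT6 and HXT7 lay beyond a step in the 4 libraries labelled 1 and 3, and HXT1, HXT4 and HXT5 in the 2 libraries labelled 4. After 81 bp were subtracted there, the largest offset between libraries around a member was 3.5 bp, against 83.0 bp as deposited.

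The transporters differ in affinity and in the glucose level at which they are made. HXT1 and HXT3 encode low-affinity carriers of cells with ample glucose, HXT4 one of intermediate to high affinity, and HXT2, HXT6 and HXT7 high-affinity carriers of cells short of glucose. HXT5 is made in slowly growing cells, and HXT8, HXT9 and HXT10 are little expressed under most conditions. The repressor Rgt1, with Mth1, Std1 and the co-repressor Cyc8-Tup1, keeps many HXT promoters silent until the membrane sensors Snf3 and Rgt2 report glucose, and Mig1 and Mig2 repress the high-affinity genes when glucose is plentiful.

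Each call is described by its centre (the dyad), its class and a score that runs from 0 to 1. The authors' score is the mean of a width component, which is high where fragments sit at 1 place, and a height component, which follows coverage. In a bulk culture, fewer cells with a nucleosome at a place and less recovered DNA per cell cannot be told apart. The treated libraries held 74716 ± 271 calls and the untreated 72973 ± 344 (SD, n = 4 each). Class W, the authors' class of well-positioned calls, made up 49.5% ± 1.73 of calls in treated and 55.0% ± 1.79 in untreated libraries. The mean score of all calls was 0.645 ± 0.00259 and 0.659 ± 0.00560. Read pairs are stated only as about 10 M, with the same wording for each sample, so the depth of single libraries is unknown.

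Of the 37 nucleosomes tested upstream of the 10 members, 8 scored lower with phenanthroline, at dyads that were not called as moved. They were 4 of the 5 tested at HXT7, 2 of 4 at HXT5, 1 of 3 at HXT4 and 1 of 4 at HXT6. Over the genome 13.1% of nucleosomes outside coding sequence were called lower, a set that differs from the upstream windows, which can hold parts of neighbouring genes. The upstream score of HXT7 fell furthest of the 5815 genes tested, and that of HXT5 fell further than in all but 12 genes. Upstream of HXT1, HXT2, HXT3, HXT8, HXT9 and HXT10 no nucleosome passed the test. Inside the coding sequences scores passed in few places, in both directions.

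The 10 genes stand on 5 chromosomes (R64, the assembly behind sacCer3). HXT7 (YDR342C, chromosome IV, 1154216 to 1155928), HXT6 (YDR343C, IV, 1159608 to 1161320) and HXT3 (YDR345C, IV, 1162957 to 1164660) follow each other on the minus strand. HXT4 (YHR092C, VIII, 287081 to 288811), HXT1 (YHR094C, VIII, 290913 to 292625) and HXT5 (YHR096C, VIII, 294669 to 296447) do the same on chromosome VIII. HXT2 (YMR011W, XIII, 288079 to 289704), HXT10 (YFL011W, VI, 112345 to 113985), HXT9 (YJL219W, X, 19497 to 21200) and HXT8 (YJL214W, X, 26887 to 28596) are on the plus strand. The coordinates span the coding sequence, so positions below are counted from its start, negative upstream. Upstream windows overlapped annotated neighbours by 549 bp at HXT4 (AHT1), 444 bp at HXT6 (YDR344C), 400 bp at HXT8 (IMA5), 263 bp at HXT5 (PAL2) and 240 bp at HXT9 (IMA4), and no gene at the other 5 members.

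**Figure D1:**
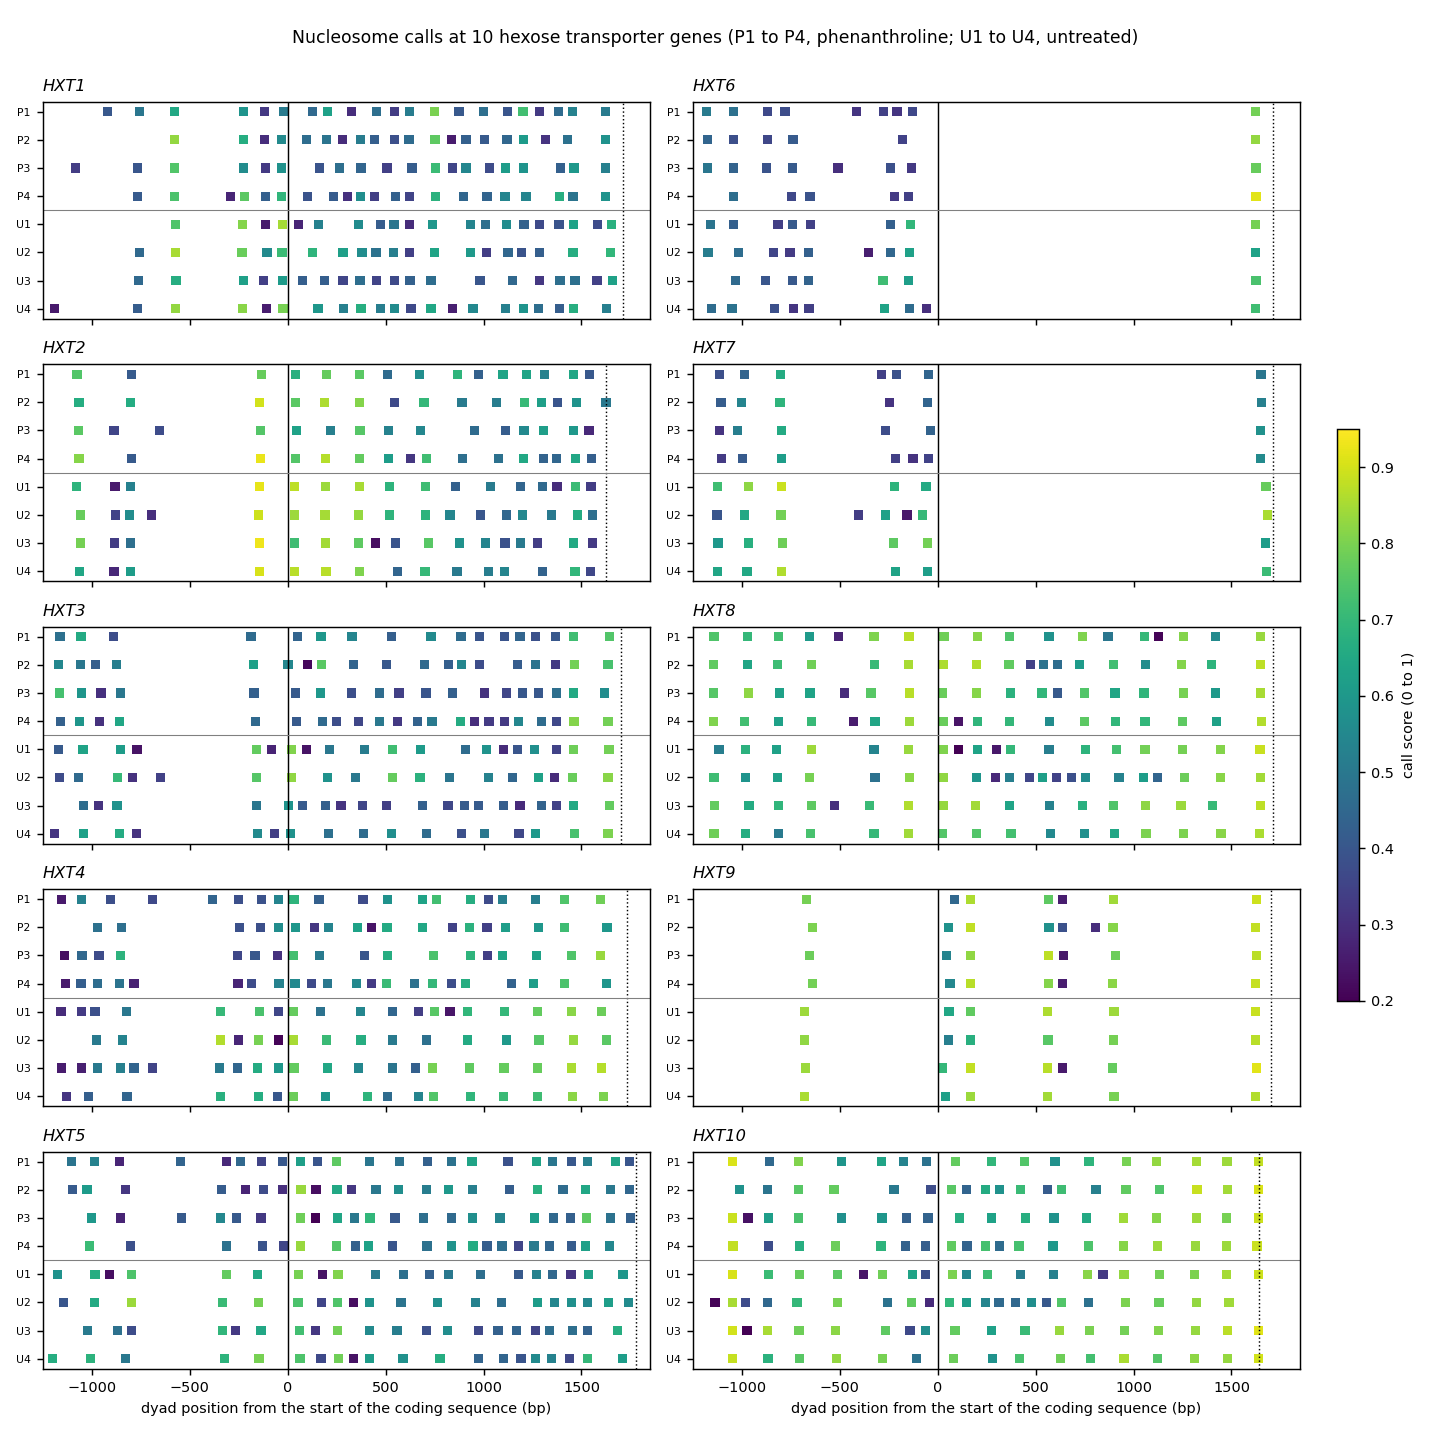
Every call in the 10 windows by library, with the 4 phenanthroline libraries (P1 to P4) above the 4 untreated libraries (U1 to U4); the x axis is the dyad position in bp from the start of the coding sequence (solid line; dotted line, its end) and the colour is the call score. The coding sequences of HXT6 and HXT7 hold 1 call in each library, near their ends, and darker squares stand upstream of HXT4, HXT5 and HXT7 in the phenanthroline rows.

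The map of calls showed long stretches without a dyad in any library. In HXT6 none lay between -59 and 1621 bp, a stretch of 1680 bp, and in HXT7 none between -38 and 1649.5 bp, a stretch of 1687.5 bp. HXT6 and HXT7 are near-identical in sequence, and how reads that match both were placed is not given in the sources used here. Its part in the missing calls was not tested, so nothing is reported on their coding sequences except the single call near each end. Of 1979 genes at least as long as the shortest member (1626 bp), 66 (3.34%) had at most 1 coding call in every library, and these included the relatives HXT15 and HXT16, which had none.

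HXT9 had a stretch of 715 bp without a dyad inside its coding sequence, from 906 to 1621 bp, and another of 663 bp from -638 to 25 bp. It held 1 upstream call in each library. How reads that match more than 1 place in the genome were placed is not given in the sources used here. Its part in these stretches of HXT9 was not tested. Upstream of other members, no library had a dyad over 506 bp at HXT2 (-655 to -149), 461 bp at HXT3 (-649 to -188), 389 bp at HXT7 (-793 to -404) and 304 bp at HXT4 (-690 to -386). A stretch had to be free of dyads in every library, so its presence in both groups follows from the definition. Its edges can come from a single library, as at -386 bp of HXT4 (treated strain 1).

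The upstream gap of a gene was the widest distance between neighbouring dyads whose midpoint lay in the 1200 bp before the coding sequence, so its downstream dyad can lie inside the gene. At HXT9 it ran from the single upstream dyad to the first one in the coding sequence. Its median over the members was 519 bp in treated and 505 bp in untreated cells, against medians over all genes of 287 and 278 bp in the same order of groups. HXT9 (712.5 ± 29.4 bp in treated and 723 ± 17.7 bp in untreated cells), HXT3 (695 ± 9.15 and 608 ± 91.0 bp) and HXT2 (624 ± 73.2 and 631 ± 56.8 bp) had the widest. In untreated cells 98.0% or more of all genes had a narrower one than these 3 genes. The part of read placement in the gap of HXT9 was not tested. HXT7 averaged 547 ± 30.8 bp in treated and 530 ± 88.8 bp in untreated cells, and HXT1 528 ± 205 and 560 ± 126 bp. HXT8, at 227 ± 62.5 and 295 ± 64.8 bp, and HXT10, at 244 ± 41.9 and 235 ± 28.5 bp, had short gaps (SD, n = 4 each).

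**Figure D2:**
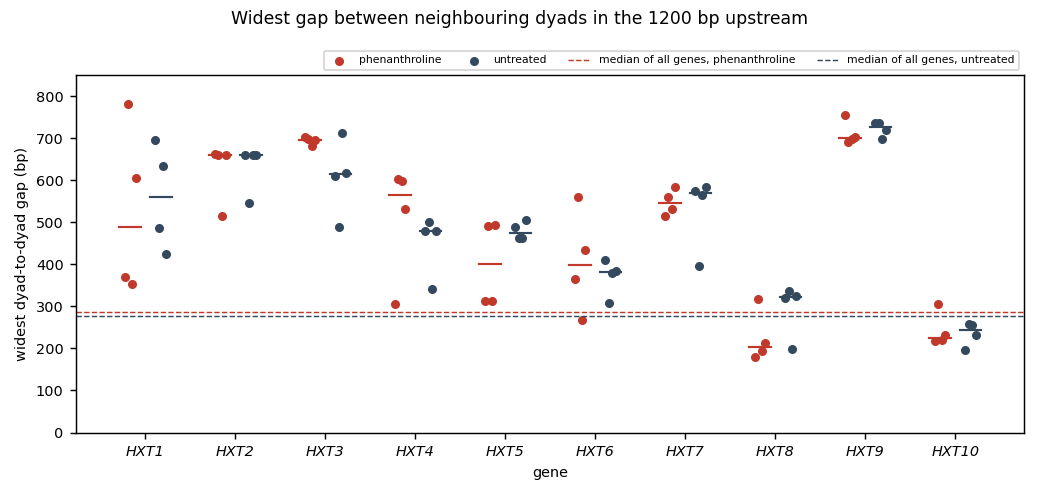
Widest distance in bp between neighbouring dyads with their midpoint in the 1200 bp before each gene, 1 point a library (phenanthroline left, untreated right), with the group median as a bar and the median of all genes as a dashed line. The points of HXT9 lie between 692 and 756 bp in all 8 libraries, and those of the phenanthroline and untreated groups overlap at all 10 genes.

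The gap passed the test in 0 of the 10 members (limma over 5919 genes, Benjamini-Hochberg threshold 0.05). Over all genes 8.36% were called at this adjusted threshold. At an unadjusted p under 0.05 the count of members was also 0, and the share of all genes there is not given. HXT3 had the largest difference, 87.4 bp wider in treated cells with an SE of 42.5 bp (limma, adjusted p = 0.198). A narrower measure, the depleted region at the start, is the distance between a pair of consensus nucleosomes, counting only those called in at least 4 of the 8 libraries. It could be tested at 7 members. It was 237, 178, 214 and 210 bp at HXT3 in treated cells of strains 1 to 4, against 179, 178, 165 and 167 bp in untreated cells. The groups met at 178 bp. At HXT3 the region passed over weak calls at about -76 bp, made in 0 treated and 2 untreated libraries (strains 1 and 4, scores 0.274 and 0.339), so it is not free of calls in those 2. The region was wider by 37.5 bp with an SE of 11.2 bp (limma, adjusted p = 0.0437, and 0.0706 with the strain as a block), the only one of the 7 called, where 23.9% of all genes were called wider. When single libraries were left out, it passed only without treated strain 2 (adjusted p = 0.0209, against up to 0.0993 in the other 7 fits).

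The upstream score was the gene measure with the most members called, 2 of the 9 tested. The upstream score of a gene, the mean score of its calls in the 1200 bp before the coding sequence, could be tested at 9 members, since HXT9 had 1 upstream call. HXT7 and HXT5 fell, and 0 rose. Over all 5815 genes tested 10.8% were called lower and 1.69% higher. The median difference, treated minus untreated, was -0.0657 over the 9 members and -0.0268 over all genes. Treated scores were below untreated ones at 6 of the 9 members and at 71.5% of all genes.

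HXT7, which encodes a high-affinity carrier, had upstream scores of 0.441, 0.480, 0.459 and 0.393 in treated cells of strains 1 to 4, against 0.755, 0.536, 0.722 and 0.681 in untreated cells. Every treated library lay below every untreated one, and strain 2 had the smallest difference. The means were 0.443 ± 0.0370 and 0.674 ± 0.0966 (SD, n = 4 each), a difference of -0.230 with an SE of 0.0424 (limma, adjusted p = 0.0117). In treated cells 0.499% of genes had a lower upstream score than HXT7, and in untreated cells 28.1% did.

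HXT5, the carrier of slowly growing cells, had 0.404, 0.386, 0.427 and 0.465 in treated cells, against 0.606, 0.679, 0.503 and 0.665 in untreated cells. Again the groups did not overlap. The means were 0.420 ± 0.0344 and 0.613 ± 0.0800, a difference of -0.193 with an SE of 0.0367 (limma, adjusted p = 0.0124). Both genes stayed called in all 8 fits that left out a library.

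HXT4 and HXT6 came close to the threshold. HXT4 had 0.412 ± 0.0308 in treated and 0.486 ± 0.0332 in untreated cells, lower in 4 of 4 strains, a difference of -0.0741 (limma, adjusted p = 0.0618). With the strain as a block its adjusted p was 0.0484, and with 800 bp upstream in place of 1200 bp the difference was -0.158 (limma, adjusted p = 0.0115). HXT6 had 0.385 ± 0.00564 in treated and 0.451 ± 0.0379 in untreated cells, and its groups did not overlap (limma, difference -0.0657, adjusted p = 0.0680). Groups that did not overlap, with the treated one lower, were found at 18.0% of all genes.

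The remaining upstream scores did not pass. The low-affinity gene HXT1 had 0.531 ± 0.0461 in treated and 0.609 ± 0.0679 in untreated cells (limma, adjusted p = 0.159), and HXT3 had 0.502 ± 0.0172 and 0.477 ± 0.0143 (limma, adjusted p = 0.365). The high-affinity gene HXT2 had 0.665 ± 0.0824 and 0.604 ± 0.0231 (limma, adjusted p = 0.271). The measure averages whatever calls were made, so an added weak call lowers it. Every untreated library held a weak call between -888 and -879 bp of HXT2 (0.252 to 0.349). Among treated libraries only strain 3 did (0.353), and the part of this call in the difference was not tested. HXT8 and HXT10, both little expressed, had 0.688 ± 0.0383 and 0.682 ± 0.0158 and 0.595 ± 0.0298 and 0.647 ± 0.0784, with adjusted p in limma of 0.879 and 0.341. Several of these genes stood low whatever the treatment. In untreated cells 0.310% of genes had a lower upstream score than HXT6, 0.705% than HXT3 and 0.946% than HXT4.

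**Figure D3:**
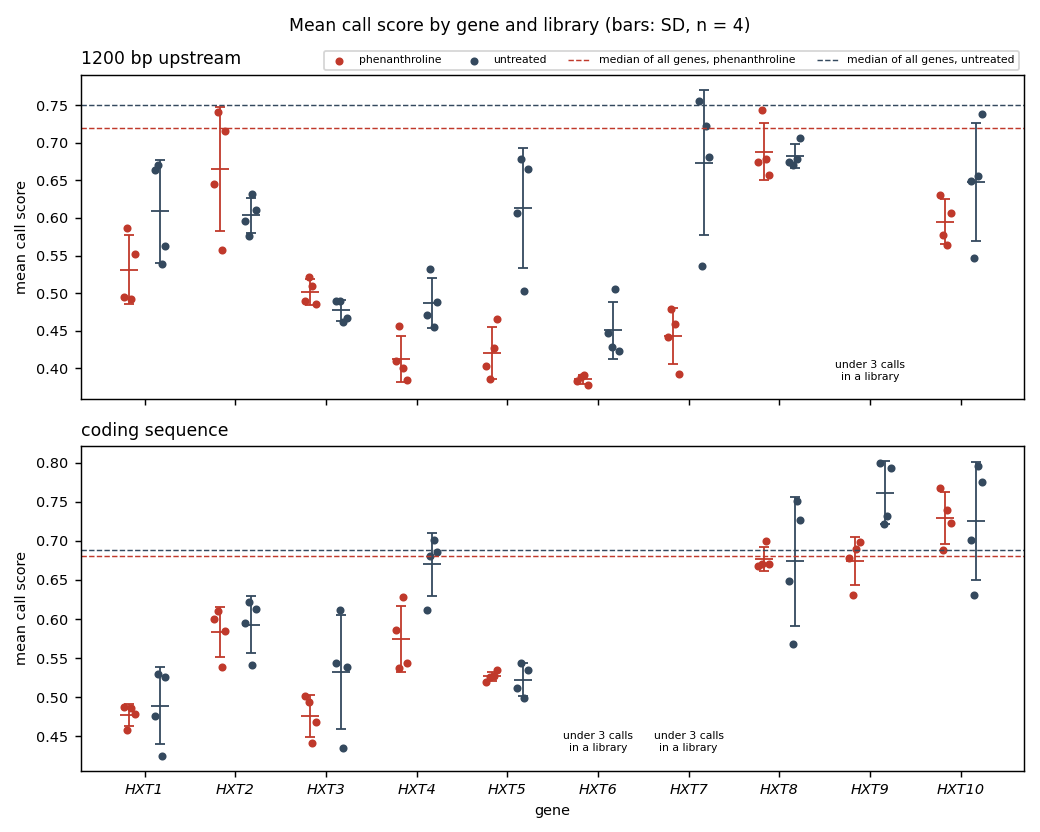
Mean call score upstream (top) and in the coding sequence (bottom) of each gene, 1 point a library with mean and SD (n = 4; phenanthroline left, untreated right); dashed lines give the median of all genes. Upstream of HXT5 and HXT7 the phenanthroline points, from 0.386 to 0.480, all lie below the untreated points, from 0.503 to 0.755.

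Class W calls were counted over the same windows. Upstream of the 10 members the treated libraries held 13 to 15 class W calls (mean 14 ± 1.15) and the untreated 20 to 25 (mean 23.0 ± 2.16), of 53.5 ± 4.80 and 55.25 ± 2.22 calls in all. That is 26.4% ± 4.08 of upstream calls in treated and 41.8% ± 5.47 in untreated cells. Over all calls of the genome the shares were 49.5% ± 1.73 and 55.0% ± 1.79. The share over the upstream calls of all genes is not given. HXT7 had 1 class W call upstream in each treated library, against 4, 2, 4 and 4 in the untreated ones. HXT5 had 0, 0, 1 and 0, against 3, 3, 2 and 3. HXT10 had 2, 2, 3 and 2, against 5, 3, 4 and 4, and HXT9 had 0, 1, 0 and 0, against 1 in each untreated library. At these 2 genes the groups met, as they did at HXT6, with 0 in each treated library against 1, 0, 1 and 0. At HXT2 every library held 2, and at the remaining members the groups overlapped. These counts were not tested, and no share of all genes stands beside them.

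Nucleosome by nucleosome, 164 consensus positions lay in the 10 windows, and 106 of them were called in every library and so tested, 37 upstream and 69 in coding sequence. Scores fell at 13 and rose at 1. Over 60148 nucleosomes of the genome 5.51% were called lower and 2.87% higher. Upstream, 8 of the 37 fell and 0 rose, where 13.1% of nucleosomes outside coding sequence were called lower and 0.869% higher. These sets are unlike. The upstream windows can hold coding sequence of neighbouring genes, and the genome share also covers gene ends. With the strain as a block 6 of the 37 passed. In coding sequence, 5 of the 69 fell and 1 rose, beside 3.49% lower and 3.40% higher inside coding sequences. Groups that did not overlap were found at 20 of the 106, with the treated group lower at 17 and higher at 3, against 10.9% and 6.32% of nucleosomes of the genome. No nucleosome of the 10 windows was present in all libraries of one group while missing from all of the other. Over the genome this happened at 0.126% of positions for the treated and 0.145% for the untreated group. The 8 upstream nucleosomes belonged to HXT7 (4), HXT5 (2), HXT4 (1) and HXT6 (1).

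**Figure D4:**
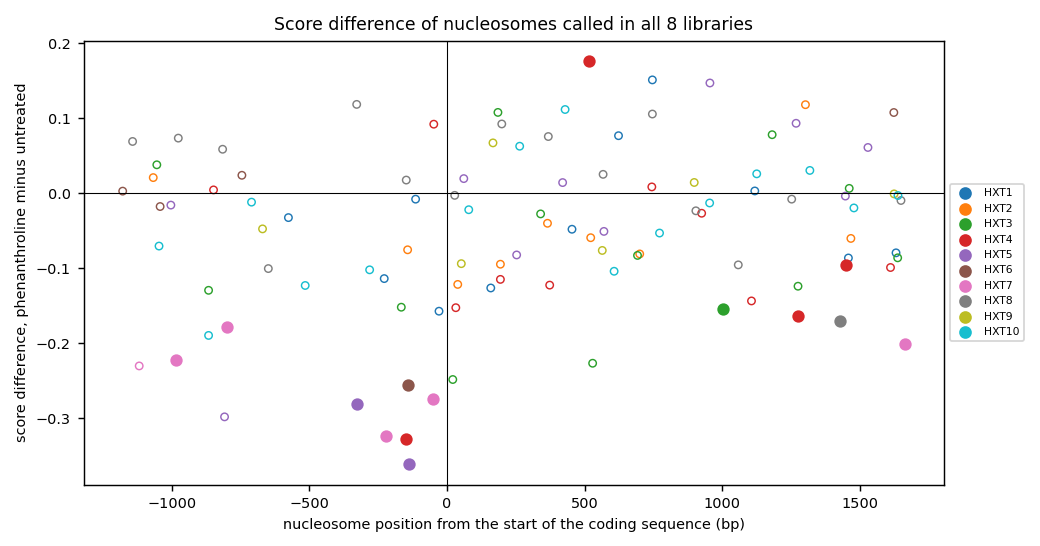
Score difference, phenanthroline minus untreated, of the 106 tested nucleosomes against their position in bp from the start of the coding sequence; colours are genes, and filled points passed the threshold. The 8 filled points left of 0 lie between -0.362 and -0.178.

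HXT7 lost score along most of its upstream region. The nucleosome just before the coding sequence, at -52 bp (IV, 1155980), scored 0.443, 0.440, 0.436 and 0.348 in treated cells of strains 1 to 4, against 0.655, 0.703, 0.789 and 0.617 in untreated cells. The next, at -223 bp (IV, 1156151), scored 0.388, 0.314, 0.373 and 0.342 in treated cells, against 0.685, 0.625, 0.765 and 0.636 in untreated cells. At neither place did the groups overlap, and in untreated cells each scored above 0.60 in every library. The differences were -0.274 with an SE of 0.0406 (limma, adjusted p = 0.00812) and -0.324 with an SE of 0.0348 (limma, adjusted p = 0.00326). That at -52 bp borders the stretch without calls over the coding sequence, which starts at -38 bp. How reads that match both HXT6 and HXT7 were placed is not given, and its part in this score was not tested. Beyond the other dyad-free stretch, which lies upstream, the nucleosome at -799 bp kept class W in all 8 libraries. It scored 0.654 ± 0.0299 in treated and 0.832 ± 0.0529 in untreated cells (limma, adjusted p = 0.0144). The one at -986 bp scored 0.477 ± 0.0608 and 0.699 ± 0.0838 (limma, adjusted p = 0.0272, and 0.0560 with the strain as a block). It did not pass without treated strain 1, treated strain 4 or untreated strain 4, with adjusted p of 0.0685, 0.0602 and 0.0503 in limma. The fifth tested, at -1118 bp, scored 0.360 ± 0.0483 and 0.590 ± 0.137 and did not pass (limma, adjusted p = 0.0619).

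HXT5 lost score at the nearest 2 tested nucleosomes upstream of its start. The first in its coding sequence, at 61 bp, did not pass, with 0.769 ± 0.101 in treated and 0.749 ± 0.0328 in untreated cells (limma, adjusted p = 0.840). That at -139 bp (VIII, 296586) scored 0.352, 0.370, 0.324 and 0.392 in treated cells, against 0.648, 0.792, 0.648 and 0.796 in untreated cells. It was class W in 0 treated and 4 untreated libraries. The difference of -0.362 with an SE of 0.0413 (limma, adjusted p = 0.00375) was called in all 13 alternatives that could be run. The nucleosome at -326 bp (VIII, 296773) scored 0.287, 0.415, 0.548 and 0.480 in treated cells, against 0.770, 0.707, 0.690 and 0.685 in untreated cells. Strain 3 had the smallest of these differences and strain 1 the largest. It fell by 0.280 with an SE of 0.0525 (limma, adjusted p = 0.0185, and 0.0504 with the strain as a block). Without untreated strain 1 the adjusted p was 0.0588. A weak call at -25 bp, with scores of 0.405, 0.301 and 0.358, was made in 3 treated and 0 untreated libraries.

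HXT4, a carrier of intermediate to high affinity, lost score at -150 bp (VIII, 288961), with 0.388, 0.381, 0.403 and 0.372 in treated cells, against 0.734, 0.797, 0.660 and 0.665 in untreated cells. Every treated value was below every untreated one. The difference was -0.328 with an SE of 0.0328 (limma, adjusted p = 0.00280). The nucleosome before it, at -346 bp, could not be tested. It was called in 1 treated library, strain 1, at -386 bp with a score of 0.440, and in all 4 untreated libraries between -348 and -342 bp with scores of 0.703, 0.863, 0.506 and 0.675. Between these places, at -253 bp, all 4 treated libraries and 2 untreated ones held a weak call.

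HXT6, the near-identical neighbour of HXT7, lost score at -143 bp (IV, 1161463), with 0.363, 0.348, 0.326 and 0.341 in treated cells, against 0.694, 0.627, 0.616 and 0.461 in untreated cells. Strain 4 had the lowest untreated score, still above all treated ones. The difference was -0.255 with an SE of 0.0454 (limma, adjusted p = 0.0156). The other 3 tested nucleosomes upstream of HXT6 differed by -0.0176 to 0.0241, and none passed.

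The score was split into its components, in fits chosen after seeing the data. Of the 8 upstream nucleosomes, the height component was called lower at 8 and the width component at 2, where 5.91% and 2.29% of all nucleosomes were called lower. The 8 were chosen on the mean of these components, which partly fixes that count. At -223 bp of HXT7 the height component was 0.187 ± 0.0311 in treated and 0.792 ± 0.0873 in untreated cells, and the width component 0.522 ± 0.0361 and 0.563 ± 0.0464. At -52 bp the height component was 0.162 ± 0.0301 and 0.688 ± 0.0978, with width components of 0.671 ± 0.0645 and 0.694 ± 0.0728. At -143 bp of HXT6 the height component was 0.20 ± 0.0284 and 0.629 ± 0.176, and the width difference of -0.0809 did not pass (limma, adjusted p = 0.134). The width component fell as well at -139 bp of HXT5 (limma, difference -0.134, adjusted p = 0.0364) and at -150 bp of HXT4 (limma, difference -0.106, adjusted p = 0.0475). On the width component alone the upstream scores of HXT7 and HXT5 did not pass (limma, adjusted p = 0.206 and 0.130). Whether height and width differ in how much they changed was not tested.

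**Figure D5:**
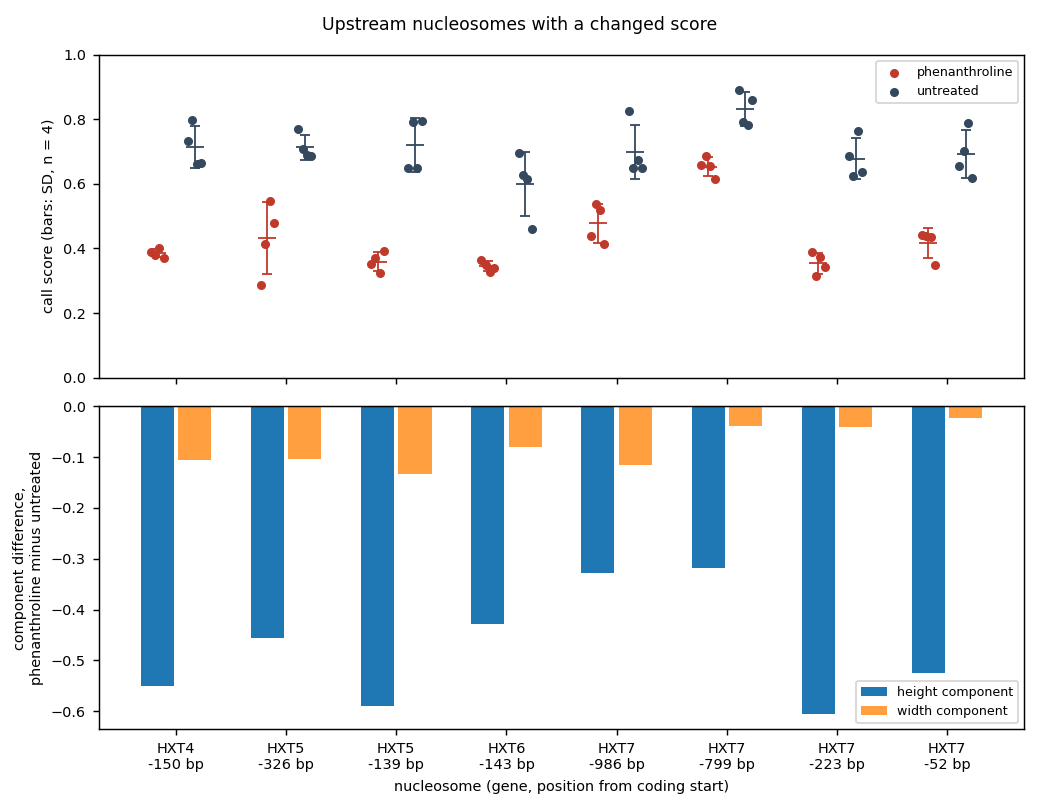
Top, call score of the 8 upstream nucleosomes that passed the threshold, 1 point a library with mean and SD (n = 4; phenanthroline left, untreated right). Bottom, the difference of the height and of the width component, phenanthroline minus untreated; the height bars reach -0.606 and the width bars -0.134.

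Few positions were called as moved. Of the 106 dyads, 2 moved, and over the genome 1.28% did. The last nucleosome of HXT7, at 1664 bp, stood further upstream in treated cells (limma, difference -26.25 bp, adjusted p = 0.00945, and 0.0670 with the strain as a block). Its score fell by 0.201 (limma, adjusted p = 0.0430, and 0.0802 with the block). Of the 8 fits without a library that score passed only without untreated strain 3 (adjusted p = 0.0153), and it did not pass with scores centred on the library median (adjusted p = 0.0642). It is the single call in the HXT7 coding sequence and borders the stretch without calls. In HXT3 the nucleosome at 185 bp lay at 170, 172, 167 and 179 bp in treated cells, against 215, 204, 191 and 210 bp in untreated cells. The mean difference was -33.1 bp, further upstream in treated cells (limma, adjusted p = 0.0412, and 0.0948 with the block). Of the fits that left out a library, it passed only without untreated strain 3 (adjusted p = 0.00856). None of the 37 upstream dyads was called as moved, including those of HXT4, HXT5, HXT6 and HXT7 described above. With an unadjusted p under 0.05 limma counted 21 of the 106 dyads, 9 of them upstream and 3 of these at HXT7. The share of all nucleosomes at that threshold is not given. A missed threshold does not show that a dyad stayed in place.

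Upstream of the other members no difference passed. At HXT2 the nucleosome at -143 bp, which borders the long gap, was class W in all 8 libraries and scored 0.837 ± 0.0878 in treated and 0.912 ± 0.0165 in untreated cells (limma, adjusted p = 0.296). At HXT8 that at -148 bp scored 0.858 ± 0.0152 and 0.841 ± 0.0170 (limma, adjusted p = 0.624), with dyads between -151 and -146 bp in every library. The single upstream nucleosome of HXT9, at -670 bp, scored 0.792 ± 0.00821 and 0.839 ± 0.0127. Its groups did not overlap, but it did not pass (limma, adjusted p = 0.151). At HXT3 the nucleosomes on both sides of the gap, at -166 and -866 bp, scored 0.491 ± 0.0894 and 0.643 ± 0.139, and 0.509 ± 0.110 and 0.638 ± 0.0533, in treated and untreated cells (limma, adjusted p = 0.228 and 0.181). At HXT1 that at -29 bp scored 0.585 ± 0.0774 and 0.742 ± 0.106 (limma, adjusted p = 0.134). Upstream of HXT10 all 5 tested nucleosomes scored lower on average in treated cells, with differences of -0.19 to -0.0117, and none passed. A missed threshold does not show that these places were unchanged.

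In the coding sequences the mean score was called in 0 of 8 members, where 6.81% of all genes were called in either direction. At an unadjusted p under 0.05 limma counted 2, HXT4 and HXT9, and the share of all genes at that threshold is not given. HXT4 had 0.574 ± 0.0423 in treated and 0.670 ± 0.0399 in untreated cells (limma, difference -0.0961, adjusted p = 0.0521). HXT9 had 0.678, 0.630, 0.690 and 0.698 in treated cells of strains 1 to 4, against 0.80, 0.722, 0.731 and 0.793 in untreated cells. These groups did not overlap, as at 8.93% of all genes with the treated group lower (limma, difference -0.0875, adjusted p = 0.0523, and 0.0382 with the strain as a block). The differences of HXT1, HXT2, HXT5, HXT8 and HXT10 lay between -0.0117 and 0.00428. HXT3 had 0.476 ± 0.0273 in treated and 0.532 ± 0.0727 in untreated cells (limma, difference -0.0562, adjusted p = 0.309). The bodies also differ among themselves. HXT1 had 0.477 ± 0.0139 in treated and 0.489 ± 0.0495 in untreated cells, and 2.81% of genes had a lower untreated value, while HXT10 had 0.729 ± 0.0330 and 0.726 ± 0.0755.

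Of the 6 nucleosomes inside coding sequences that passed, 3 lay in HXT4, 1 in HXT3, 1 in HXT8 and 1, described above, in HXT7. That at 516 bp of HXT4 was the only one in the 10 windows to rise, with 0.583, 0.655, 0.667 and 0.707 in treated cells, against 0.445, 0.507, 0.491 and 0.463 in untreated cells. The groups did not overlap, and the difference was 0.177 with an SE of 0.0301 (limma, adjusted p = 0.0137). Further into the same gene, the nucleosome at 1274 bp fell by 0.163 (limma, adjusted p = 0.0168) and that at 1448 bp fell as well (limma, difference -0.0955, adjusted p = 0.0237, and 0.0657 with the strain as a block). One nucleosome passed in HXT8, at 1426 bp (limma, difference -0.17, adjusted p = 0.0283), and 1 in HXT3, at 1003 bp (limma, difference -0.154, adjusted p = 0.0473). When single libraries were left out, the call of HXT8 held in 2 of 8 fits (without treated strain 2 or untreated strain 3) and that of HXT3 in 1 of 8 (without untreated strain 3, adjusted p = 0.0202). That at 1448 bp of HXT4 held in 3 of 8, without treated strain 4 or untreated strain 2 or 3. With scores centred on the library median those at 1448 bp of HXT4 and 1003 bp of HXT3 did not pass (limma, adjusted p = 0.0614 and 0.0736). That at 1274 bp was lost without untreated strain 1 (limma, adjusted p = 0.0557).

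The number of calls per window was called in 0 of the 10 members, where 0.733% of all genes were called. At an unadjusted p under 0.05 limma counted 2 members, and the share of all genes at that threshold is not given. HXT5 had 22.0 ± 0.816 calls in treated and 20.25 ± 0.50 in untreated cells, and HXT9 had 7.25 ± 0.50 and 6.25 ± 0.50. Calls inside HXT1, HXT3 and HXT5 stood close together. The median distance between neighbouring dyads in HXT1 was 106 ± 7.98 bp in treated and 99.25 ± 1.71 bp in untreated cells, against medians over all genes of 153 and 159 bp. Calls closer than the length of a nucleosome overlap and cannot all be present in 1 cell.

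Genes that act with the transporters were read with the same measures, from lists of 7 further family members, 15 genes of glucose sensing and HXT regulation, and 3 hexose kinases. Of 5 further family members tested upstream, 1 was called lower, beside 10.8% of all genes. That was the galactose permease gene GAL2, with 0.687 ± 0.0628 in treated and 0.792 ± 0.0267 in untreated cells (limma, adjusted p = 0.0478, and 0.0578 with the strain as a block). It held in 2 of 8 fits that left out a library, without treated strain 2 or untreated strain 3. The call was also lost with scores centred on the library median, with the median over calls and with 800 bp upstream (limma, adjusted p = 0.151, 0.319 and 0.121). The median difference of the 5 was -0.0524. Of the 15 regulators, 1 fell upstream and 0 rose, beside 10.8% and 1.69% of all genes, with a median difference of -0.0198. That was TUP1, the co-repressor gene, with 0.735, 0.736, 0.750 and 0.744 in treated cells, against 0.872, 0.881, 0.820 and 0.848 in untreated cells (limma, difference -0.114, adjusted p = 0.00740), and it held in 8 of 8 such fits. In the coding sequence, MTH1, whose product works with Rgt1, was the 1 of 15 called, with 0.422 ± 0.0269 and 0.523 ± 0.0221 (limma, adjusted p = 0.0180), where 3.65% of all genes were called lower. It held in 6 of 8 fits, and not without treated strain 3 or untreated strain 1 (adjusted p up to 0.0633), nor with the median over calls (adjusted p = 0.0674).

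The depleted region at the start was called wider at 2 of 12 regulators tested, beside 23.9% of all genes. At MTH1 it was 672 ± 6.0 bp in treated and 617 ± 18.4 bp in untreated cells (limma, adjusted p = 0.0116, and 0.0523 with the strain as a block). At STD1, a relative of MTH1, it was 429 ± 2.63 and 418 ± 3.27 bp (limma, adjusted p = 0.0235, and 0.0573 with the block). When a library was left out, MTH1 held in 8 of 8 fits and STD1 in 4 of 8 (adjusted p up to 0.0664). Among the kinases, GLK1 (glucokinase) rose upstream, with 0.631 ± 0.0530 in treated and 0.509 ± 0.0352 in untreated cells (limma, adjusted p = 0.0242). It was lost without treated strain 1 or 4 or untreated strain 1 (adjusted p up to 0.0625), and at a score of at least 0.4 (adjusted p = 0.0604). HXK1 (a hexokinase) fell in the coding sequence, with 0.539 ± 0.0208 and 0.606 ± 0.0160 (limma, adjusted p = 0.0471). Its depleted region was narrower, at 152 ± 13.0 and 186.5 ± 17.5 bp (limma, adjusted p = 0.0372, and 0.0629 with the block), where 2.11% of all genes were called narrower. The coding score of HXK1 held in 2 of 8 fits, without treated strain 4 or untreated strain 2 (adjusted p up to 0.129 in the others), and its depleted region in 1 of 8, without untreated strain 3. The coding score was also lost with scores centred on the library median (limma, difference -0.0424, adjusted p = 0.126), at a score of at least 0.4 (adjusted p = 0.100) and with coordinates as deposited (adjusted p = 0.0521). In the lists without a call the smallest unadjusted p belonged to HXT14 in the coding sequence, the upstream gap and the depleted region, with adjusted p in limma of 0.261, 0.119 and 0.0782. Among numbers of calls it belonged to HXT13, REG1 and GLK1, and among regulator and kinase gaps to SNF3 and HXK1, with adjusted p in limma from 0.0618 to 0.656.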

How the data were processed

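Nucleosome calls of 8 MNase-seq libraries were used, 4 treated with phenanthroline and 4 untreated, grouped by the treatment label. Per the file columns, the authors called nucleosomes with nucleR in each library, on sacCer3 per the submitters' processing notes. Not given in the sources used here: nucleR's version and its threshold, the aligner and the read filters. The deposited score of a call (0 to 1) is relative within a library, so lower height means less coverage relative to that library. Other deposited values are start and end coordinates. Their midpoint was taken as the dyad, and 91.5% of treated and 92.7% of untreated calls spanned 147 bp. Depth per library is unknown, so no counting interval is given.

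A RefSeq table of R64 gave the gene coordinates, and 10 of 10 members matched by symbol. Beyond each step in the coordinates 81 bp were subtracted. Dyads of all libraries were pooled, smoothed (Gaussian, SD 20 bp), and maxima at least 80 bp apart made consensus nucleosomes. Each took its nearest call within 60 bp per library, so calls that shared a place were left out there. Gene scores needed at least 3 calls in every library. The depleted region was the widest gap between consensus nucleosomes called in at least 4 libraries, with its downstream dyad within 150 bp before and 200 bp after the start, so weaker calls can lie inside it.

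All tests were run in R 4.3.3 with limma 3.58.1, treatment as the only term, over all genes or nucleosomes, two-sided, with Benjamini-Hochberg adjustment at 0.05. Numbers of calls are small whole numbers, for which the fit is approximate. Both libraries of a label come from 1 strain, so the fit with the strain as a block is the paired analysis. Deviations of same-numbered libraries correlated by 0.0810 to 0.343 over genes in coding score and by 0.0373 to 0.247 in upstream score. For strain 1 the highest correlation with another number was larger (0.179 against 0.0912 and 0.143 against 0.0373). On simulated data with 200 changed features a measure, 100 of 100 changes of 8 SD were recovered for nucleosome scores and 47 of 100 of 4 SD, with 0 of wrong sign. For dyads 29 of 100 changes of 4 SD were recovered. False calls numbered 8 for nucleosome scores, 12 for dyads, 19 for upstream scores and 20 for numbers of calls.

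All members are named, with every nucleosome past a threshold, those bordering the widest gap, and of each other list the genes past a threshold or, without one, that with the smallest p. The members and lists were chosen with earlier results of these data known. Python 3.11.15 with numpy 2.4.6, pandas 2.3.3, scipy 1.17.1 and matplotlib 3.10.9 did the other steps.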

Additional observations from a re-analysis of the deposited data

Results flagged for a closer look

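Of 101 groups of 4 libraries tested by Dixon's gap ratio at its 95% critical value, 11 held a library apart from the other 3. For independent, normally distributed values chance gives about 1 in 20. Some of these measures share the same calls, so the count of 11 cannot be set against that rate. Widest upstream gaps made up 6 of the 11. At HXT2 the treated library of strain 3 had 514 bp and the untreated one of strain 2 had 546 bp, against 659 to 663 bp and 659 to 660 bp in the other libraries of each group. The other gaps were 342 bp in untreated strain 3 at HXT4, 397 bp in untreated strain 2 at HXT7, 198 bp in untreated strain 3 at HXT8 and 306 bp in treated strain 2 at HXT10. The depleted region of HXT8 was 198 bp in untreated strain 3 as well, against 175 to 178 bp. Among scores, the coding score of HXT8 was 0.700 in treated strain 3, against 0.668 to 0.671. At HXT7 the nucleosome at -52 bp scored 0.348 in treated strain 4, against 0.436 to 0.443, and that at -986 bp scored 0.824 in untreated strain 1, against 0.649 to 0.674. At 1426 bp of HXT8 the untreated library of strain 3 scored 0.706, against 0.811 to 0.817. Each of these calls at HXT7 kept its direction and stayed past the threshold without the library named for it.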

How the results depend on the processing

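Of 68 single results tested under the alternatives, 0 reversed while called, 27 passed the threshold, and 12 of these passed in every fit that left out 1 library. Only 1 of the 27, the nucleosome at -139 bp of HXT5, passed in every alternative that could be run on it, and 26 were lost in some. All its treated scores were below 0.4, so it could not be tested with only calls of a score of at least 0.4. The 14 nucleosome scores became 11 with the strain as a block, of which 6 lay upstream. They became 7 with only calls of a score of at least 0.4, 9 with calls assigned within 30 bp and 7 on the width component. With coordinates as deposited they became 2, where libraries shifted by 81 bp share fewer positions. Without 1 library they ranged from 8 (without untreated strain 1) to 19 (without untreated strain 3), with 9 without treated strain 1 and 9 without untreated strain 4. The 2 moved dyads became 0 with the strain as a block and 0 as deposited, and 1 to 4 without a library (1 without treated strain 4 or untreated strain 1, 4 without untreated strain 2). The 2 upstream scores became 1 at a score of at least 0.4 (HXT10, difference -0.113), 1 with 800 bp (HXT4), 0 on width and 4 on height (HXT4 to HXT7). In the first 2 settings HXT5 and HXT7 had fewer than 3 calls in a library and were not tested. The coding score count of 0 became 1 with the block, 1 at a score of at least 0.4, 1 on width, 1 on height, and 0 to 1 without a library (1 without untreated strain 2). The widest gap count of 0 became 1 at a score of at least 0.4 and 0 to 1 without a library (1 without untreated strain 3). The 1 depleted region became 0 with the block, 0 as deposited, and 0 to 1 without a library (1 only without treated strain 2). Where no construction of the alternative shows it, the cause was not tested. At -150 bp of HXT4 the call was lost with deposited coordinates (limma, difference -0.222, adjusted p = 0.138), at -326 bp of HXT5 without untreated strain 1 (adjusted p = 0.0588), and at -986 bp of HXT7 without treated strain 1 or 4 or untreated strain 4 (adjusted p up to 0.0685). The component fits were chosen after seeing the data. Depth is unknown, and 4 libraries a group limit the precision.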
